A study of Saccharomyces cerevisiae with 21 samples.

Results

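Loss of both Gal11 and Med3 from the Mediator tail of budding yeast was compared with wild type in rich medium (YPD). The comparison rests on 6 of the series' 21 arrays, the 3 titled gal11Δ med3Δ YPD and the 3 titled wild type YPD, chosen by their titles. It covers 5449 genes of Saccharomyces cerevisiae. RNA came from mid-log cultures grown at 30 °C, and no label tells whether the replicates of a group came from separate cultures. The p-values therefore measure the spread between these arrays, which may be technical. The gal11Δ med3Δ strain is labelled MATα and carries med3Δ::kanMX4 and med15Δ::kanMX4. The gene of Med3 is PGD1, and Gal11 is also called Med15. The wild type is labelled MATa. Both strains also carry his3Δ1, leu2Δ0, met15Δ0 and ura3Δ0. A further tail mutant, gal11-myc med3Δ, is labelled MATa with his3Δ1, leu2Δ0 and ura3Δ0. Its PGD1 is disrupted by URA3, its tagged GAL11 is marked with HIS3MX, and its srb4Δ::kanMX deletion is covered by a plasmid that carries SRB4 and LEU2. The 3 strains were also grown in synthetic medium (CSM), and a further wild type, BY4742, in YPD. BY4742 is labelled MATa with his3Δ1, leu2Δ0, lys2Δ0 and ura3Δ0, although its mating type genes differed from those of the wild type above, the strain called BY4741 in the authors' deposited table. Values given for this pair of wild types are log2 of that table's fold changes. They run as BY4742 over BY4741, against the order in its header. LYS2 stands there at -6.47 and MET17 at 8.78, which is the direction of the labelled lys2Δ0 and met15Δ0 alleles. The same BY4741 arrays in YPD serve as wild type for gal11Δ med3Δ, so their spread enters both sets of values.

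Mediator links sequence-specific activators to RNA polymerase II. Its tail, which includes Gal11 and Med3, is the part that many activators bind, and it also takes part in keeping some genes low. Tail subunits are not required for growth in rich medium, in contrast to core subunits of the head and middle.

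Values are deposited log2 signals centred for each probe set on the median of the 9 YPD arrays of the 3 strains. They show differences between arrays and not the level of a gene. At least 1 of the 9 values of a probe set is 0.00 by construction, and 38.4% of probe sets have more than 1 such value. GAL11 read -5.45, -6.0 and -5.76 in gal11Δ med3Δ, against 0.60, 0.56 and 0.93 in wild type. PGD1 read 0.00, -0.48 and -0.15 in gal11Δ med3Δ, against 4.33, 4.54 and 4.02 in wild type. Both deleted genes were thus far lower on all 3 mutant arrays. LYS2, a lysine synthesis gene, read -6.42, -6.65 and -6.36 in gal11Δ med3Δ, against -0.26, 0.00 and 0.32 in wild type, although the label of gal11Δ med3Δ names no lysine marker. Of 22 mating type and strain marker genes measured, 17 differed by at least 2-fold at an adjusted p under 0.05 in limma, the rule for a called gene below. The strains therefore differ in mating type and in LYS2 as well as in the tail, and the part of each in the other differences cannot be told apart. Those 22 genes are left out of the accounts of other genes below.

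Of all 5449 genes, 407 were called (7.47%), 254 higher (4.66%) and 153 lower (2.81%) in gal11Δ med3Δ. Without the mating type and marker genes, 248 of 5427 genes were called higher and 142 lower. Of those called genes, 29 were at least 4-fold higher and 45 at least 4-fold lower (35 and 56 with the mating type and marker genes). "Rose" and "fell" below mean an adjusted p under 0.05 at any size, which 1499 genes (27.5%) and 1056 genes (19.4%) reached, together 46.9%. The 3 arrays of a strain did not overlap the 3 of the other in 52.4% of all genes and in 405 of the 407 called genes. The median gene had an SD of 0.11 in gal11Δ med3Δ and 0.14 in wild type, and a median difference of 0.03. Of 1746 probe sets for genes outside the S. cerevisiae table, 0 differed by 2-fold, with no test made on them.

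A whole chromosome stood apart. The 258 genes of chromosome V, outside the marker genes, had a median log2 difference of 0.80, which is 1.74-fold higher in gal11Δ med3Δ, with quartiles of 0.48 and 1.15. The medians of the other 15 chromosomes lay between -0.02 and 0.12. On chromosome V 217 genes rose, 7 fell and 34 did not pass, 245 of the 258 differences were above 0, and the arrays did not overlap in 227 genes. The left and right arms had medians of 0.80 (67 genes) and 0.79 (191 genes). Of the chromosome V genes 33.0% were called higher, against 3.15% of the 5169 genes elsewhere. Chromosome V thus held 85 of the 248 genes called higher, 34.3% of them, with 4.75% of the genes.

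**Figure D1:**
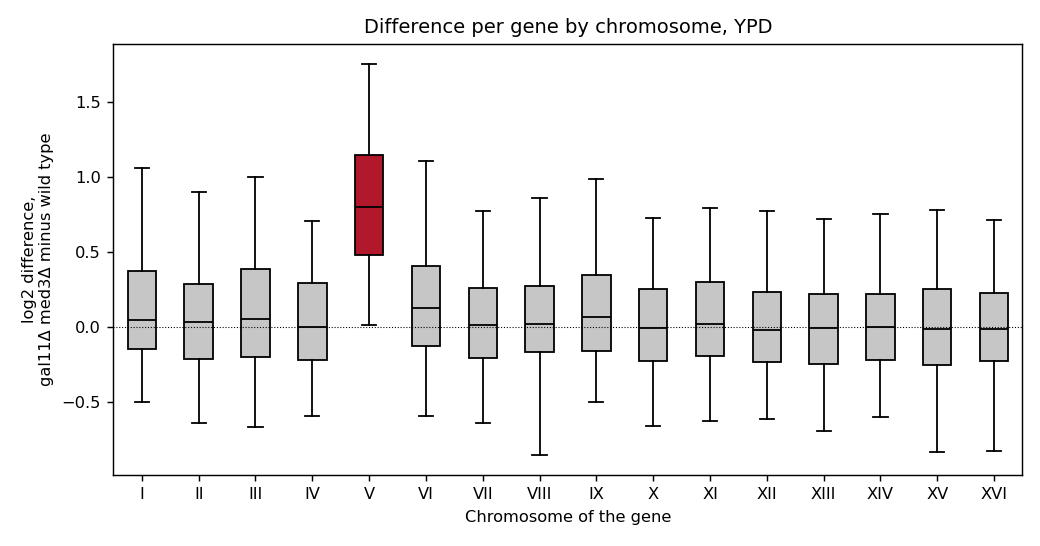
Log2 difference per gene in YPD, gal11Δ med3Δ minus wild type, by chromosome (horizontal axis), without mating type and marker genes. Boxes span the quartiles with the median as a line, and whiskers run to the 5th and 95th percentiles. The box of chromosome V (258 genes, median 0.80) lies above those of the other 15 chromosomes, whose medians are between -0.02 and 0.12.

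The shift was alike on each mutant array in YPD. Taken against the wild type mean of each gene, the median of chromosome V was 0.81 on all 3 gal11Δ med3Δ arrays, against 0.01, 0.00 and -0.01 on the wild type arrays. On the gal11-myc med3Δ arrays in YPD it was 0.03, -0.00 and 0.02. In CSM, against wild type in CSM, it was 0.25, 0.15 and 0.11 on the gal11Δ med3Δ arrays. The highest values were thus those of gal11Δ med3Δ in YPD, with no overlap with wild type or gal11-myc med3Δ. In CSM the median difference of chromosome V genes was 0.16, smaller than in YPD but above those of all other chromosomes. There 103 of the 258 genes rose and 33 fell, where 27.1% and 18.4% of all genes did. The median deposited value of chromosome V averaged 0.64 ± 0.02 over gal11Δ med3Δ arrays and -0.09 ± 0.01 over wild type arrays (SD, n = 3 each, exact 2-sided permutation p = 0.1, the smallest that 3 against 3 arrays allow). Gene by gene, 219 chromosome V genes were higher in gal11Δ med3Δ than in gal11-myc med3Δ and 1 was lower at an adjusted p under 0.05 in limma, where 8.96% and 6.15% of all genes were. The difference from wild type was larger in YPD than in CSM for 178 of them and smaller for 7, against 16% and 15.1% of all genes. These arrays measure RNA, and DNA copy number was not analysed here. Named genes below are marked where they lie on chromosome V, and several lists are given without it as well.

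**Figure D2:**
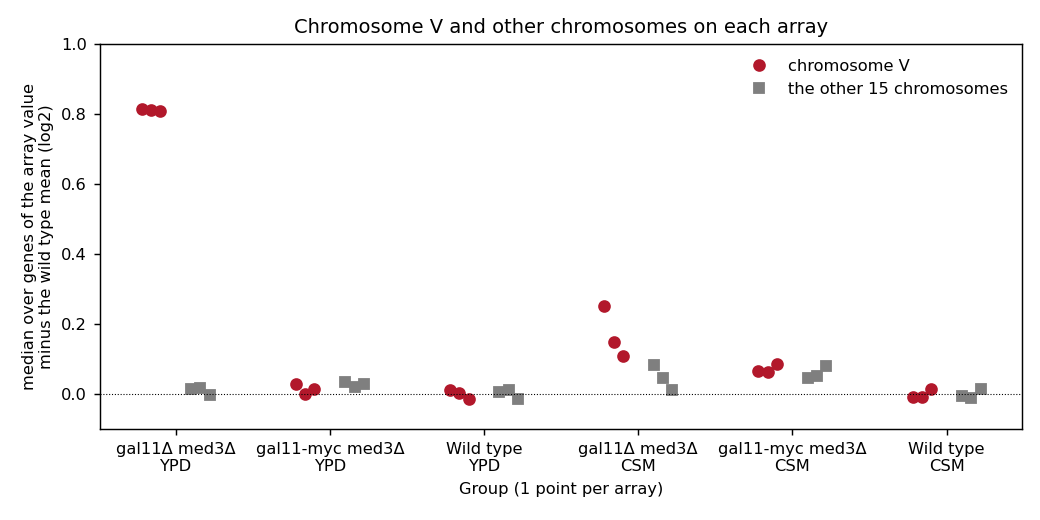
For each array, the median over genes of the log2 value minus the mean of wild type in the same medium, for chromosome V (circles) and for the other 15 chromosomes (squares). Groups run along the horizontal axis with 1 point per array. The 3 gal11Δ med3Δ arrays in YPD stand at 0.81 for chromosome V, all other circles lie at 0.25 or lower, and the squares lie near 0.

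Without chromosome V, 163 genes were called higher and 139 lower, 1274 rose and 1038 fell, and the median was 0.01, with quartiles of -0.22 and 0.27. The 5 chromosome V genes among the 15 largest rises and 15 largest falls lay far from its median. MIG3 stood 2.22 above that median, DLD3 1.69, FAA2 1.55 and MXR1 1.51, and YER053C-A stood at -4.51 from it. Other chromosome V genes at the top, named after their values were seen, were SER3, the first enzyme of serine synthesis, at 2.22 ± 0.20 (log2 difference ± SE), CEM1, of mitochondrial fatty acid synthesis, at 2.07 ± 0.18, and PET117, a cytochrome oxidase assembly factor, at 2.06 ± 0.24. CEM1 read 1.73, 1.76 and 2.06 in gal11Δ med3Δ, against -0.40, -0.04 and -0.21 in wild type. Besides YER053C-A, the genes called lower on chromosome V were PHM8, a phosphatase gene, at -1.74 ± 0.39 and COM2, a transcription factor gene, at -1.47 ± 0.16.

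Of the gene lists, that of the weak acid response had the lowest median. Haa1 is the activator that turns on membrane transporters and wall proteins when cells meet acetic or other weak acids. Of 13 such genes measured, 12 fell and 0 rose, 9 were called lower, and the median difference was -1.72, against 0.03 over all genes. YRO2, a plasma membrane protein of the rhodopsin-like family, read -2.12, -2.18 and -2.30 in gal11Δ med3Δ, against 2.96, 2.78 and 3.19 in wild type, a difference of -5.18 ± 0.31 (adjusted p = 9.69e-10). YGP1, a secreted glycoprotein of starved cells, read -1.54, -1.72 and -2.37 in gal11Δ med3Δ, against 2.22, 2.22 and 2.21 in wild type (-4.09 ± 0.39, adjusted p = 3.29e-07). TDA6 read -0.66, -0.63 and -0.75 in gal11Δ med3Δ, against 2.44, 2.39 and 2.59 in wild type (-3.15 ± 0.18, adjusted p = 4.13e-10). In all of these the mutant arrays lay together far below the wild type arrays. TPO3, a polyamine exporter of the plasma membrane, was at -1.75 ± 0.50 (adjusted p = 0.00873). The 10 members outside chromosome V had a median of -1.73, and all 10 fell. In CSM, where 9.29% of all genes were called, 27.1% rose and 18.4% fell, the same list had 11 of 13 lower and 0 higher.

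Small plasma membrane proteins of stressed cells fell as well. Of 14 genes in that list, which shares YRO2 with the one above, 11 fell, 0 rose and 6 were called lower, with a median of -0.81. HSP30, which restrains the plasma membrane proton pump under stress, read -2.04, -1.96 and -2.29 in gal11Δ med3Δ, against 2.99, 2.80 and 2.86 in wild type (-4.98 ± 0.29, adjusted p = 6.36e-10). DDR2, a stress-induced small protein, read -0.93, -1.01 and -1.59 in gal11Δ med3Δ, against 2.21, 1.95 and 1.97 in wild type (-3.22 ± 0.40, adjusted p = 5.66e-06). AQY1, a water channel, was at -2.47 ± 0.19. The mutant arrays were below every wild type array in each of these 3 genes.

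Exporters of drugs and weak acids followed the same direction in part. Of 22 measured, 9 fell, 2 rose and 6 were called lower, with a median of -0.23. AQR1, a transporter of short-chain acids and amino acids, read -1.08, -1.12 and -0.74 in gal11Δ med3Δ, against 1.18, 1.15 and 0.54 in wild type (-1.94 ± 0.21, adjusted p = 1.33e-06). SNQ2 and PDR5, multidrug pumps of the ABC family, were at -1.58 ± 0.13 and -1.30 ± 0.09. All 3 of these pumps were lower on every mutant array than on any wild type array.

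Other large falls lay in genes of varied roles. CHA1, the deaminase that breaks down serine and threonine, read -1.56, -1.24 and -2.17 in gal11Δ med3Δ, against 1.99, 3.40 and 3.39 in wild type (-4.58 ± 0.31, adjusted p = 4.85e-09). STP4, a zinc finger protein gene, read -0.81, -0.80 and -1.27 in gal11Δ med3Δ, against 3.63, 3.38 and 3.52 in wild type (-4.47 ± 0.19, adjusted p = 8.86e-12). FMP48, a putative protein kinase gene, read -0.00, 0.00 and -0.53 in gal11Δ med3Δ, against 3.96, 3.76 and 3.37 in wild type (-3.88 ± 0.19). These genes were among those chosen without overlap of the strains. CHA1 was lower on wild type replicate 1 than on the other wild type arrays. HSP12, a small membrane-protecting heat shock protein, read -2.72, -2.86 and -4.02 in gal11Δ med3Δ, against 0.79, 0.62 and 0.02 in wild type (-3.68 ± 0.69, adjusted p = 0.000364). HSP12 also varied within gal11-myc med3Δ, from -3.25 to 0.83. RGS2, which restrains glucose signalling through the Gpa2 G protein, was at -3.36 ± 0.22. NCA3, a mitochondrial biogenesis and wall family gene, was at -3.73 ± 0.40. YLR297W, a vacuolar membrane protein, read -0.65, -0.54 and -0.55 in gal11Δ med3Δ, against 2.45, 2.63 and 2.49 in wild type, the tightest of the 15 largest falls (SE 0.07).

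**Figure D3:**
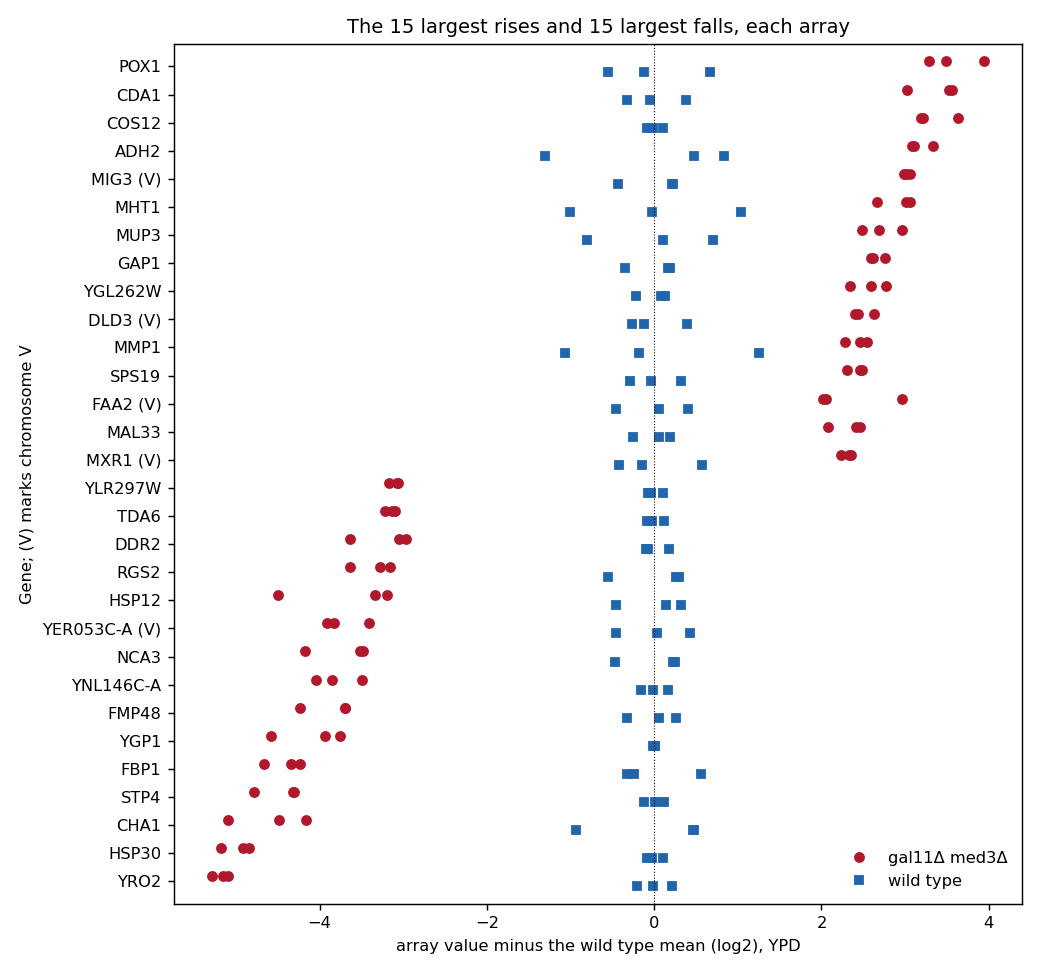
Array values minus the wild type mean (log2, horizontal axis) for the 15 largest rises and 15 largest falls. Mating type and marker genes and genes on shared probe sets are left out. Circles are gal11Δ med3Δ and squares wild type, 3 arrays each. The 30 were taken only from called genes whose 2 groups did not overlap, so the groups are apart in all of them by choice. The wild type arrays spread most in MHT1, MMP1, MUP3 and ADH2, and genes marked (V) lie on chromosome V.

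Genes of peroxisomal fatty acid oxidation rose. This pathway shortens fatty acids to acetyl-CoA and is normally low in glucose. Of 20 measured, 11 rose, 0 fell and 4 were called higher, with a median of 0.45. POX1, the acyl-CoA oxidase that starts each round, read 2.07, 1.87 and 2.53 in gal11Δ med3Δ, against -0.74, -1.54 and -1.97 in wild type (3.57 ± 0.25, adjusted p = 6.62e-09). SPS19, a reductase for unsaturated fatty acids, read 1.40, 1.22 and 1.37 in gal11Δ med3Δ, against -0.77, -1.13 and -1.37 in wild type (2.42 ± 0.14, adjusted p = 5.17e-10). IDP3, which supplies peroxisomal NADPH, was at 1.68 ± 0.11. FAA2, a medium-chain acyl-CoA synthetase on chromosome V, read 1.66, 1.62 and 2.57 in gal11Δ med3Δ, against 0.00, -0.34 and -0.86 in wild type (2.35 ± 0.26, adjusted p = 1.91e-06). The mutant arrays were above all wild type arrays in all 4 genes. Of the 19 members outside chromosome V, 10 rose and 0 fell. Peroxisome assembly factors also rose, 12 of 24, with 1 lower and a median of 0.33. PEX30, a regulator of peroxisome number, was at 1.17 ± 0.12, and PEX11, which divides peroxisomes, at 0.86 ± 0.09.

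Genes of gluconeogenesis and the glyoxylate cycle, which are low in glucose too, split: of 14 measured, 6 fell, 5 rose and 4 were called lower. FBP1, the phosphatase that commits carbon to glucose synthesis, read -1.16, -1.04 and -1.48 in gal11Δ med3Δ, against 2.95, 3.75 and 2.86 in wild type (-4.42 ± 0.76, adjusted p = 0.00016). MDH2, the cytosolic malate dehydrogenase, read -0.22, 0.00 and 0.11 in gal11Δ med3Δ, against 1.65, 1.62 and 1.53 in wild type (-1.64 ± 0.09, adjusted p = 4.13e-10). PCK1, phosphoenolpyruvate carboxykinase, was at -1.52 ± 0.42, and MLS1, malate synthase, at -1.62 ± 0.50. In PCK1 and MLS1 wild type replicate 3 read 0.00, lower than the other wild type arrays but above all mutant arrays. Without wild type replicate 2 MLS1 did not pass (adjusted p = 0.0902). Without chromosome V the list median was -0.72, with 4 of 13 higher. The count of genes that rose was 2 without wild type replicate 3 and 3 without gal11Δ med3Δ replicate 1 or 3, and the list median of all 14 genes was -0.39 but -0.09 without wild type replicate 1 and -0.66 without wild type replicate 3. In the shuttle that moves acetyl units between compartments, 3 of 10 rose (2 of 9 without chromosome V) and 1 fell. SFC1, the succinate-fumarate carrier, was at -1.92 ± 0.53 (adjusted p = 0.0518 without wild type replicate 2), and at -1.30 between the wild types in the authors' deposited table, while CAT2, carnitine acetyltransferase, was at 0.81 ± 0.13.

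Alcohol and aldehyde dehydrogenases were mixed as well, with 9 of 15 higher and 3 lower at the adjusted threshold. ADH2, which oxidises ethanol and is repressed by glucose, read 0.48, 0.26 and 0.23 in gal11Δ med3Δ, against -2.02, -2.38 and -4.17 in wild type (3.18 ± 0.36, adjusted p = 1.95e-06). ADH5 was at 1.55 ± 0.27, against 1.08 between the wild types in the authors' deposited table, and ALD6, the cytosolic acetaldehyde dehydrogenase, at -1.59 ± 0.23. Among 21 glucose sensors and repressors 5 rose (3 of 19 without chromosome V) and 2 fell. MIG3, a repressor on chromosome V, read 2.76, 2.83 and 2.78 in gal11Δ med3Δ, against -0.02, 0.00 and -0.66 in wild type (3.02 ± 0.36, adjusted p = 3.40e-06). MTH1, a corepressor of hexose transporter genes, was at 1.22 ± 0.39 (adjusted p = 0.0514 without wild type replicate 2), and GAL83, a subunit of the Snf1 kinase on chromosome V, at 1.15 ± 0.11. The authors' deposited table gives MTH1 1.21 between the wild types. The falls in that list numbered 4 without gal11Δ med3Δ replicate 3. Of 12 glycerol genes 4 fell and 2 rose (4 without gal11Δ med3Δ replicate 2). GPD1, the first step of glycerol synthesis, read -0.14, 0.00 and -0.07 in gal11Δ med3Δ, against 1.94, 1.73 and 1.97 in wild type (-1.95 ± 0.17). GUT2, which oxidises glycerol phosphate in mitochondria, was at 1.11 ± 0.15. Of 20 trehalose and glycogen genes 4 fell and 4 rose (3 of 19 without chromosome V). Their median was 0.09, against 0.90 between the wild types in the authors' deposited table. The falls in that list numbered 1 or 2 without gal11Δ med3Δ replicate 1 or 2, or wild type replicate 1 or 3.

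Sulfur genes rose together. Sulfate is taken up and reduced for methionine and cysteine, and these genes are turned on when methionine is short. Of 25 genes of sulfate assimilation and methionine synthesis, 18 rose, 0 fell and 7 were called higher, with a median of 0.67. Without chromosome V it was 15 of 22, with a median of 0.64. MET2, the first step from homoserine, read 0.31, 0.53 and -0.03 in gal11Δ med3Δ, against -2.31, -2.11 and -1.66 in wild type (2.30 ± 0.37, adjusted p = 8.31e-05). MET32, a zinc finger factor of these genes, read 0.49, 0.35 and 0.00 in gal11Δ med3Δ, against -2.41, -1.84 and -1.56 in wild type (2.22 ± 0.28). SAM2, S-adenosylmethionine synthetase, was at 1.82 ± 0.26, and MET8, of siroheme synthesis, at 1.73 ± 0.21. Every mutant array was above every wild type array in these 4 genes.

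Uptake and salvage of sulfur compounds showed higher single values. Of 15 genes 10 rose, 1 fell and 6 were called higher, with a median of 0.86. MHT1, which makes methionine from S-methylmethionine, read 1.14, 1.19 and 0.80 in gal11Δ med3Δ, against -2.88, -1.90 and -0.83 in wild type (2.92 ± 0.38, adjusted p = 9.30e-06). Its neighbour MMP1, the S-methylmethionine permease, read 0.60, 0.34 and 0.51 in gal11Δ med3Δ, against -3.01, -2.13 and -0.70 in wild type (2.43 ± 0.40, adjusted p = 0.000101). MUP3, a methionine permease, read 1.13, 0.93 and 1.41 in gal11Δ med3Δ, against -2.35, -1.45 and -0.85 in wild type (2.71 ± 0.40, adjusted p = 3.99e-05). The mutant arrays were close together while the wild type arrays spread, with replicate 3 the nearest to the mutant in all 3 genes. In the authors' deposited table the corrected p was 0.0518 for MHT1 and 0.106 for MMP1. SUL1, a sulfate permease, was at 1.52 ± 0.14. MXR1, which repairs oxidised methionine and lies on chromosome V, was at 2.31 ± 0.21. Between the wild types the authors' deposited table gives medians of 0.46 for the synthesis list and 0.56 for the uptake list. It gives most of the named genes more: MET2 1.90, MUP3 1.62, MHT1 1.38, MET32 1.34, MMP1 1.17 and SAM2 1.12. Below the medians of their lists stood SUL1 at 0.35 and MET8 at -0.49, the latter in the other direction. Of the 15 largest rises, 5 were at least 2-fold higher there, MHT1, MMP1, MUP3, COS12 and YGL262W. MET17, the sulfur incorporation gene also called MET15, was at 0.17 ± 0.13 in gal11Δ med3Δ against wild type. These values share the wild type arrays with the main comparison, and the part of strain background in these rises was not tested.

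Nitrogen use genes were higher too. Of 19 genes for the uptake and use of ammonium, urea, allantoin and peptides, 14 rose, 1 fell and 3 were called higher, with a median of 0.71 (0.58 without chromosome V, with 13 of 18 higher). DAL3, of allantoin breakdown, was at 1.43 ± 0.14, and DAL80, a repressor of the same genes, at 1.35 ± 0.30. The number called higher was 6 without wild type replicate 3. Of 25 amino acid permeases 7 rose and 2 fell, a share of rises of 28.0% against 27.5% of all genes. GAP1, the general amino acid permease, read 1.14, 1.0 and 0.97 in gal11Δ med3Δ, against -1.43, -1.46 and -1.96 in wild type (2.65 ± 0.18, adjusted p = 2.99e-09). PUT4, the proline permease, was at -1.32 ± 0.37 (adjusted p = 0.0508 without wild type replicate 2). The falls in that list numbered 5 without gal11Δ med3Δ replicate 3. Of 24 amino acid breakdown genes 12 rose and 3 fell. BAT2, the cytosolic branched-chain aminotransferase, read 0.16, 0.15 and 0.08 in gal11Δ med3Δ, against -1.71, -1.95 and -1.59 in wild type (1.88 ± 0.13). GDH2, which frees ammonium from glutamate, was at 1.87 ± 0.23, while ARO10, a decarboxylase of aromatic amino acid breakdown, was at -2.33 ± 0.38, against -1.18 between the wild types in the authors' deposited table. Of 16 arginine and lysine synthesis genes 8 fell, 3 rose (5 without wild type replicate 2) and 5 did not pass, with 2 called lower. ARG3, ornithine carbamoyltransferase, was at -1.62 ± 0.38, and LYS20, homocitrate synthase, at -1.5 ± 0.11. Of 21 vitamin B6, biotin and NAD genes 11 rose and 2 fell, with a median of 0.40. BNA2 and BNA1, of NAD synthesis from tryptophan, were at 1.90 ± 0.26 and 1.80 ± 0.19.

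Of 26 genes of Pir proteins, flocculins and wall stress, 14 fell and 5 rose, with 9 falls without gal11Δ med3Δ replicate 2. WSC4, a wall sensor family protein, read -0.23, -0.46 and 0.00 in gal11Δ med3Δ, against 2.88, 2.71 and 2.35 in wild type (-2.87 ± 0.23, adjusted p = 3.54e-08), and CWP1, a mannoprotein, was at -1.99 ± 0.19. GSC2, an alternative glucan synthase subunit, was at 1.36 ± 0.13.

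Among 20 G2 and mitosis genes 4 fell (20%, against 19.4% of all genes) and 2 rose, with 2 called lower. CLB1, a mitotic cyclin, read -0.16, -0.14 and 0.00 in gal11Δ med3Δ, against 2.41, 2.39 and 1.54 in wild type (-2.21 ± 0.27, adjusted p = 4.24e-06), and CLB2, its close relative, was at -1.19 ± 0.28. The authors' deposited table gives these cyclins -1.28 and -0.71 between the wild types. Of 26 G1 and S-phase genes 8 fell (30.8%) and 1 rose, with 1 called lower. Over all genes 2.81% were called lower. CLN3, the cyclin that starts the cycle, was at -1.01 ± 0.16. The falls in that list numbered 5 without gal11Δ med3Δ replicate 1 or 3 or without wild type replicate 2, and those of the G2 list 7 without wild type replicate 3. Of 49 meiosis and spore wall genes, which vegetative cells keep low, 20 rose, 6 fell and 11 were called higher. CDA1, a chitin deacetylase of the spore wall, read 0.61, 0.64 and 0.11 in gal11Δ med3Δ, against -3.24, -2.54 and -2.97 in wild type (3.37 ± 0.19, adjusted p = 4.88e-10). SPR28 and SPR3, septins of sporulation, were at 2.05 ± 0.13 and 1.74 ± 0.17. The genes called higher numbered 7 without wild type replicate 3, and 10 without chromosome V, where the list median was 0.17 in place of 0.29. The falls numbered 3, 2 and 2 without gal11Δ med3Δ replicates 1 and 3 and wild type replicate 2, and 10 without wild type replicate 3.

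Of 31 genes of vacuolar proteases and autophagy 14 rose and 2 fell, with a median of 0.34, and 3 were called higher (5 without wild type replicate 3). APE1, a vacuolar aminopeptidase, was at 1.21 ± 0.26, and PRB1, a vacuolar protease on chromosome V, at 1.39 ± 0.15. Oxidant defence genes rose in 14 of 31 and fell in 5 (2 without gal11Δ med3Δ replicate 3). YHB1, the flavohaemoglobin that clears nitric oxide, read -0.63, -0.59 and -0.68 in gal11Δ med3Δ, against 1.25, 1.34 and 1.51 in wild type (-2.0 ± 0.11, adjusted p = 4.15e-10). SRX1, sulfiredoxin, was at 1.44 ± 0.19. Endoplasmic reticulum folding genes rose in 7 of 25 and fell in 0, a share of rises of 28.0%, and low-oxygen genes rose in 7 of 19 and fell in 3 (5 of 17 and 3 without chromosome V, which holds both genes of that list called higher). TIR3, a wall mannoprotein of low oxygen, was at -2.0 ± 0.21. Phospholipid and fatty acid synthesis genes fell in 9 of 25 and rose in 6, with 4 and 5 falls without gal11Δ med3Δ replicates 1 and 2. CHO1, phosphatidylserine synthase on chromosome V, was at 1.24 ± 0.07.

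**Figure D4:**
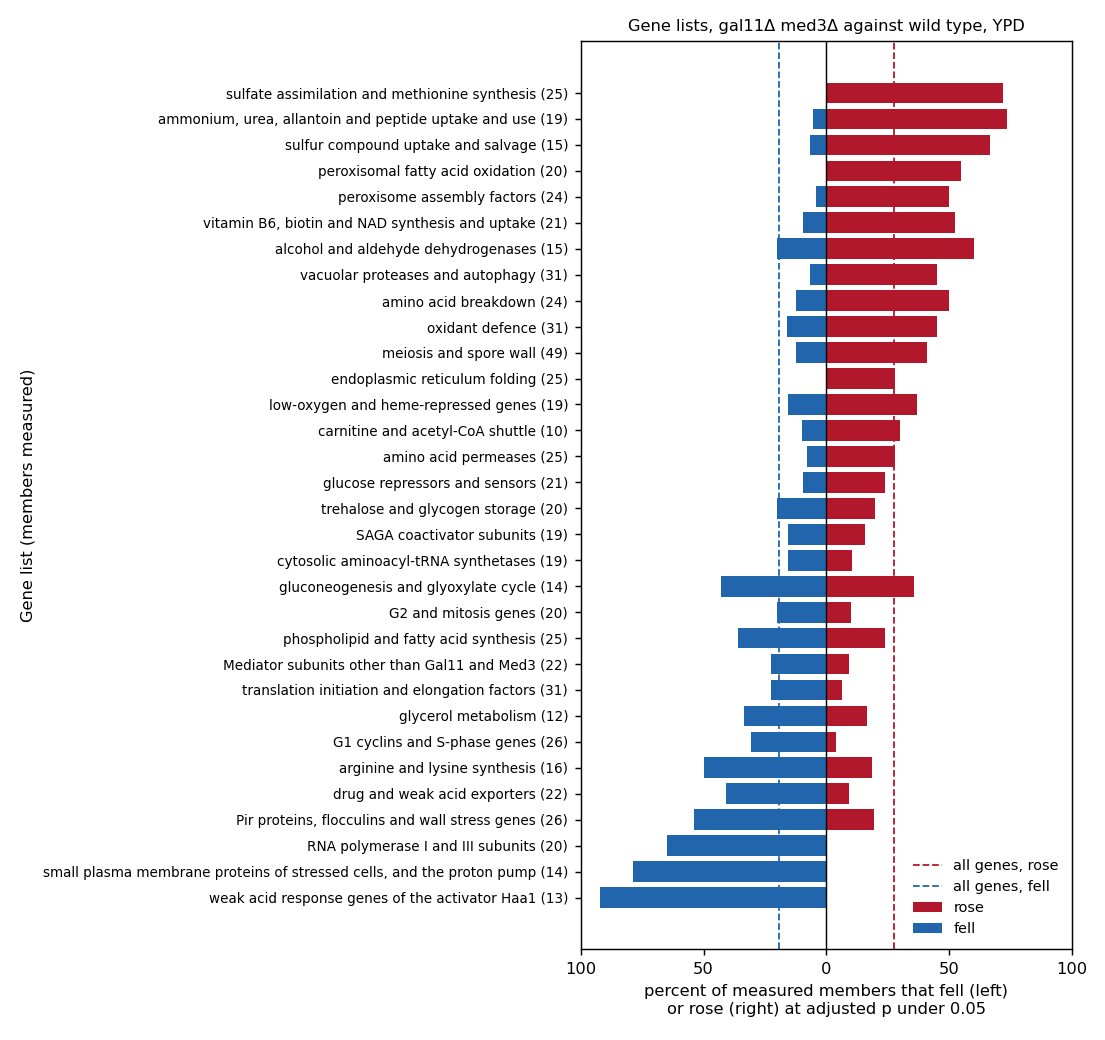
Percent of measured members of each gene list described that fell (left) or rose (right) in gal11Δ med3Δ against wild type in YPD, at an adjusted p under 0.05, with the number measured in brackets. Dashed lines mark the shares of all genes, 19.4% that fell and 27.5% that rose. The Haa1 list fell in 92.3% of its members, and the list of ammonium, urea, allantoin and peptide genes rose in 73.7%.

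The machinery of transcription and translation moved by small amounts. Of 20 subunits of RNA polymerases I and III, 13 fell, 0 rose and 0 were called, with a median of -0.32, and the falls numbered 8 without gal11Δ med3Δ replicate 3, 7 without wild type replicate 1 and 6 without wild type replicate 2. RPA190, the largest subunit of polymerase I, was at -0.47 ± 0.09. Of 31 translation factors 7 fell and 2 rose, with 4 falls without gal11Δ med3Δ replicate 1 or wild type replicate 3. Of 19 aminoacyl-tRNA synthetases 3 fell and 2 rose, with 6 falls without gal11Δ med3Δ replicate 3. No member of these 3 lists was called, against 7.47% of all genes.

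The other Mediator subunits differed little from wild type, as did most genes, 80.8% of which lay within 1.5-fold. Of 22 subunits besides Gal11 and Med3, 5 fell (22.7%) and 2 rose (9.09%), against 19.4% and 27.5% of all genes. The number called was 0, against 7.47% of all genes. Their median was -0.03, with a range from -0.50 to 0.45. SSN3, the cyclin-dependent kinase of Mediator, read -0.05, -0.16 and -0.20 in gal11Δ med3Δ, against 0.44, 0.45 and 0.19 in wild type (-0.50 ± 0.09, adjusted p = 0.00027). MED8, a head subunit, was at 0.45 ± 0.07. RGR1, the scaffold also called Med14, was at -0.30 ± 0.08. The falls numbered 3 without replicate 3 of either strain. Of 19 subunits of SAGA, another coactivator, 3 fell, 3 rose and 0 were called. UBP8, its histone deubiquitinase, was at -0.65 ± 0.08, and SPT20 at 0.46 ± 0.11.

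The other tail mutant, gal11-myc med3Δ, shared the YPD experiment and kept a GAL11 signal of -0.12, 0.00 and 0.44. Directly compared, 110 genes were called between the mutants (2.02%), 68 higher (1.25%) and 42 lower (0.771%) in gal11Δ med3Δ. Of the 68, 50 lay on chromosome V, and 12 remained outside chromosome V and the mating type and marker genes. Of the 42, 30 remained. Of the 15 largest rises over wild type, 10 were also higher in gal11Δ med3Δ than in gal11-myc med3Δ at an adjusted p under 0.05, and 5 did not pass. Of the 15 largest falls 11 were lower than in gal11-myc med3Δ, and 4 did not pass. Among those 11, replicate 3 of gal11-myc med3Δ lay within the gal11Δ med3Δ range in YGP1 (-1.89), YER053C-A (-1.03) and HSP12 (-3.25). At the same threshold and any size, 15.1% of all genes differed between the mutants, 8.96% higher and 6.15% lower in gal11Δ med3Δ. The 30 genes were chosen for large differences from wild type on these same gal11Δ med3Δ arrays. That choice favours values further from wild type than in gal11-myc med3Δ, so these counts are no separate evidence. POX1 differed most outside chromosome V among the rises, by 2.15 ± 0.25, with -0.06, 0.00 and 0.09 on the gal11-myc med3Δ arrays. COS12, a gene of a chromosome end, differed by 0.09 ± 0.29 between the mutants, with 3.35 ± 0.29 over wild type in gal11Δ med3Δ and 3.26 ± 0.29 in gal11-myc med3Δ.

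Some of the 30 genes lower than in gal11-myc med3Δ are given here, picked after their values were seen and with no list behind them. FIT2, a wall protein that holds iron siderophores, read -1.58, -1.44 and -2.07 in gal11Δ med3Δ, against 0.54, 0.41 and -0.17 in gal11-myc med3Δ (-1.96 ± 0.42, adjusted p = 0.00333), with no overlap. FIT1 and FIT3, of the same family, differed by -1.84 ± 0.31 and -1.81 ± 0.37, and FET3, an iron oxidase, by -1.06 ± 0.15. Against wild type FIT1 was at -0.56 and did not pass (adjusted p = 0.144). PHO3, an acid phosphatase, differed by -1.05 ± 0.17. MDH2 went the other way, and was 1.09 ± 0.09 higher in gal11Δ med3Δ than in gal11-myc med3Δ while lower than wild type in both.

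The difference from wild type was not the same in both media in several of the 30 largest genes. Of the 15 largest rises, the difference from wild type was larger in YPD than in CSM for 6, smaller for 3 and not distinguished for 6 at an adjusted p under 0.05, and all 4 on chromosome V were among the 6 larger ones. Of the 15 largest falls 8 were larger in YPD, 0 were smaller and 7 were not distinguished. Those 30 genes were chosen by the size of their YPD difference. That choice favours a larger difference in YPD, so the tilt towards YPD is no separate evidence. Over all genes, 31.1% passed the same test between media with no minimum size, 16% higher and 15.1% lower. With the 2-fold minimum added, 7.18% were called, 3.95% higher and 3.23% lower. Chromosome II held 109 of the 215 called higher and chromosome V 47. Without both chromosomes and the mating type and marker genes, 58 of 4783 genes were called higher and 166 lower. CHA1 was at -4.58 in YPD and at 0.09 in CSM, a difference of -4.67 ± 0.45 (adjusted p = 8.13e-07). FBP1, which is at -1.45 between the wild types in the authors' deposited table, was at -4.42 in YPD and 0.62 in CSM, a difference of -5.03 (adjusted p = 0.00191). ADH2 rose in both, by 3.18 in YPD and 5.72 in CSM. YRO2, STP4, POX1 and GAP1 did not pass the test between media. In CSM the median of the 386 genes on chromosome II was -0.72 against wild type in CSM, so that MAL33 and YRO2, which lie there, carry that shift in their CSM values.

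**Figure D5:**
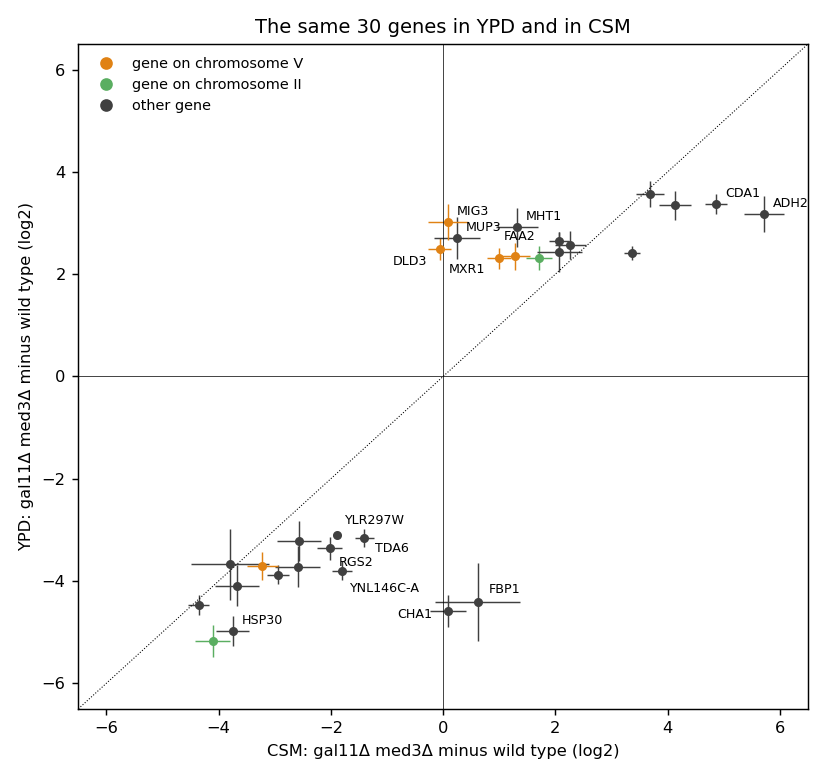
Log2 difference, gal11Δ med3Δ minus wild type, in YPD (vertical) and in CSM (horizontal) for the 30 genes of the largest changes in YPD, with SE bars from limma. The dotted line marks equal differences. CHA1 and FBP1 lie near 0 in CSM and below -4 in YPD, and the named genes differ between media by at least 2-fold at an adjusted p under 0.05.

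The share of genes called higher was counted near chromosome ends. Of 234 measured genes among the 10 outermost of each chromosome end, 31 were called higher (13.3%) and 7 lower (2.99%), against 4.18% and 2.60% of 5193 other genes. Their median difference was 0.18, against 0.02. Without chromosome V it was 12.3% of 220 genes called higher, against 2.75% of 4949. COS12 and its neighbour YGL262W lie at such an end. COS12 read 0.00, 0.01 and 0.44 in gal11Δ med3Δ, against -3.21, -3.28 and -3.09 in wild type, and YGL262W read 0.25, 0.00 and 0.42 in gal11Δ med3Δ, against -2.26, -2.57 and -2.21 in wild type. Both genes were higher on each mutant array. The authors' deposited table gives them 1.75 and 1.16 between the wild types. Both comparisons use the same wild type arrays, and the part of strain background was not tested.

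Pairs of neighbouring genes were counted as well. Of 4983 pairs of neighbouring genes both measured, 56 pairs had both members called, 49 in the same direction and 7 in opposite directions. Of these, 30 pairs were on chromosome V, 29 in the same direction, and 26 were elsewhere, 20 in the same direction. On chromosome V 33.0% of genes were called higher, against 3.15% elsewhere. How many such pairs the share of called genes alone would give was not worked out, so no clustering is read from them. MHT1 and MMP1 formed such a pair, as did TPO3 and TDA6, named like CUR1 after the values were seen. TDA6 was lower in gal11Δ med3Δ at the same time as its neighbour on the other side, CUR1, was 1.29 higher. YNL146C-A, at -3.80 ± 0.18, lies close to the a-factor gene MFA2 and was at -3.58 between the wild types in the authors' deposited table. Of the genes nearest to the deletions, DDR2, which lies 2 genes from GAL11, stood furthest from 0. The genes beside GAL11, SPE2 and GSH2, were at -0.33 ± 0.10 and 0.14 ± 0.07, of which GSH2 did not pass, and RRT8, 2 genes away, at 0.84 ± 0.22. Beside PGD1, TRP5 was at 0.31 ± 0.10 and PIB2 at 0.10 ± 0.11. SPE2 did not pass without gal11Δ med3Δ replicate 1 or wild type replicate 2 (adjusted p = 0.0572 and 0.0701). TRP5 did not pass without gal11Δ med3Δ replicate 1 or 3 or wild type replicate 2 (adjusted p = 0.057, 0.0848 and 0.077). Beside LYS2, RAD16 was at -0.26 ± 0.12 and TKL2 at 0.83 ± 0.21.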

How the data were processed

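RNA of 21 samples was measured on Affymetrix yeast arrays. The deposited log2 values were made by the authors with RMA, per the submitters' processing notes, which give no version. From the values themselves, each probe set is centred on its median in the 9 YPD arrays, in the 9 CSM arrays and in the 3 BY4742 arrays, so levels and differences between those sets are lost. The authors' deposited table of signed fold changes and corrected p-values came from GeneSpring 11.5.1, per the file headers, with test and correction not given there. Probe sets were named through the platform annotation and RefSeq names, and the probe sets of a gene were averaged (5449 genes, 47 with more than 1 probe set).

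Differences between group means came from limma 3.58.1 (R 4.3.3) fitted to all 21 arrays in 7 groups (14 residual degrees of freedom, moderated by 2.68 prior ones), with Benjamini-Hochberg adjustment over 5449 genes. A called gene had an adjusted p under 0.05 and at least a 2-fold difference. Genes were named where they were called without overlap of the groups and ranked in the top 15 by size in either direction, with up to 4 members of each list and 2 genes on each side of GAL11, PGD1 and LYS2. The rule left out mating type and marker genes and genes on shared probe sets. Genes named outside it are said to be so. Members and lists were chosen with earlier results of these data known. Deviations of same-numbered gal11Δ med3Δ and wild type arrays correlated by 0.177, 0.514 and 0.441, and those of other pairs by -0.456 to 0.191. The 0.191, of gal11Δ med3Δ replicate 2 with wild type replicate 1, lay above the 0.177 of the replicates numbered 1. Whether the numbers mark pairs is thus unclear. The main fit did not use them, and a block by replicate number was run as an alternative. The number of arrays limits the precision. Sequences were not used here, and 1 gene list is not reported here.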

Additional observations from a re-analysis of the deposited data

Results flagged for a closer look

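The difference between gal11Δ med3Δ and wild type was not the same in both media for 15 of the 30 largest changes, by limma's test of the YPD difference minus the CSM difference (adjusted p under 0.05 and at least 2-fold). Over all genes 7.18% met the same rule. The 30 were chosen by the size of their YPD difference, which favours a larger difference in YPD. Among the rises in YPD, MIG3 (2.93), DLD3 (2.55), MXR1 (1.31) and FAA2 (1.07) were higher in YPD than in CSM and lie on chromosome V, whose median differed between media as well. MUP3 (2.46) and MHT1 (1.60), of sulfur compound uptake, were also more raised in YPD. CDA1 (-1.49) and ADH2 (-2.54) were less raised in YPD than in CSM.

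Among the falls, FBP1 (-5.03) and CHA1 (-4.67) were lower in YPD and near or above wild type in CSM. The other falls that were deeper in YPD were YNL146C-A (-1.99), TDA6 (-1.75), RGS2 (-1.34), HSP30 (-1.23) and YLR297W (-1.21). Each medium has 3 arrays of each strain, centred separately, and what accounts for these differences was not tested.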

How the results depend on the processing

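The number of genes called was 407 and ranged from 391 to 448 when 1 array was left out, with 241 to 270 higher, 141 to 179 lower and 2135 to 2650 genes past the adjusted p of 0.05 whatever their size. With the replicate number as a block (replicate block) 408 genes were called, and 411 with the block within the 9 YPD arrays, an alternative added after the data were seen. Testing against a 2-fold difference with limma's treat called 133 genes, 69 higher and 64 lower. A minimum of 1.5-fold gave 998, 638 higher and 360 lower, and a minimum of 4-fold gave 91, 35 higher and 56 lower. The authors' deposited table had 1183 genes at a corrected p under 0.05, of which 312 differed by at least 2-fold. Leaving out chromosome V, also added after the data were seen, left 169 genes called higher, marker genes included. The median of chromosome V was 0.79 to 0.83 when 1 array was left out, and 0.83 without the 3 YPD arrays numbered 3. No count or named gene changed direction, but the medians of 4 lists, all near 0, changed sign when 1 array was left out: Mediator (-0.06 to 0.03), glucose repressors and sensors (-0.12 to 0.02), trehalose and glycogen (-0.07 to 0.23) and amino acid permeases (-0.12 to 0.10). Of the 151 genes chosen by the naming rule, 48 did not pass in the authors' deposited table, among them ADH2 (corrected p = 0.0575), MHT1, MMP1, SAM2 (0.0889), PCK1 (0.0879), SFC1 (0.108), ARG3 (0.128), PUT4 (0.131) and MLS1 (0.207). The 30 largest changes passed in all other alternatives checked gene by gene, which do not include limma's treat. Alternatives planned for TATA boxes in promoters were not run, since no promoter sequences were used here. Centring hides expression level, so weak probe sets could not be set apart.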
